A study of Mus musculus with 8 samples.

Results

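10 genes of the cytokine receptors that signal through JAK kinases and STAT factors, and of the feedback that STAT5 induces, were followed on 8 arrays of mouse T cell RNA. They were chosen by name: the receptor chains Il2ra, Il2rb, Il2rg, Il7r, Il4ra, Il6ra and Il21r, and the inhibitors Cish, Socs2 and Socs1. A gene was measured where a probe set named it alone, and where several did, the brightest on average across the 8 arrays was used. That left 9 of the 10 genes, out of 22180 genes with a probe set of their own; Il2rg, the common gamma chain shared by the receptors for IL-2, IL-4, IL-7 and IL-21, was not analysed here.

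The RNA came from naive CD3+ T cells of C57BL/6J mice, purified by negative selection out of lymph nodes and spleen. Cells received concanavalin A (ConA, a lectin that binds and crosslinks surface glycoproteins) on a poly-L-lysine coat (PLL, a positively charged polymer to which cells adhere), ConA without the coat, PLL without ConA, or neither (naive). Each treatment lasted 3 h, and cells for the 24 h arrays were then washed and kept in culture. The groups were ConA+PLL, ConA and PLL at 3 h with naive cells at 0 h, and ConA+PLL, ConA, PLL and naive cells at 24 h. Each group was 1 array, so no difference here has a replicate check and none carries an error or a p-value; neighbours in any order of levels given here cannot be separated from array noise. At 3 h the untreated cells are those of 0 h, and treatment and time in culture cannot be told apart in those differences, whereas ConA+PLL against ConA or against PLL is matched in time. Comparisons with the same control share that array. The labels do not say whether the arrays came from separate mice.

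Levels are the deposited log2 values, and a difference is the log2 level of the first group minus that of the second, so that a difference of 1 is 2-fold. A gene was counted as 2-fold apart where its difference was at least 1 in size. Genes entered the counts if their highest value reached 3.62, the median of all values; 13428 genes and all 9 measured members did. A second level, 4.10, was set from 1394 olfactory and vomeronasal receptor genes, 95% of which peak below it, and is used as a mark of what lies near background. The T cell label held on these arrays: the 8 measured T cell markers averaged between 9.05 and 9.74, B cell markers between 3.53 and 4.17, and those of monocytes, macrophages and dendritic cells between 3.65 and 4.06. The 6 NK cell markers averaged between 4.54 and 4.93, with 3 of them under 4.10 on all arrays. Against ConA at 24 h 5 of the 6 were lower on ConA+PLL, as were 38.4% of all genes tested. Klrd1, a lectin-like receptor also known on activated CD8 T cells, was at 8.70 on ConA+PLL and 9.61 with ConA at 24 h. It was at 9.76 on PLL and 9.51 in naive cells of that time. Eomes alone was higher on ConA+PLL, with 6.39 on ConA+PLL and 5.53 with ConA at 24 h. In whole-population RNA, fewer cells of a type and less RNA per cell cannot be told apart.

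IL-2 binds with high affinity to a receptor of alpha, beta and gamma chains, of which the alpha chain Il2ra adds affinity and the beta and gamma chains carry the signal to JAK1 and JAK3. These kinases phosphorylate STAT5, which enters the nucleus and is known in T cells to raise Il2ra and the inhibitors Cish, Socs1 and Socs2. Resting T cells depend instead on IL-7, and IL-7 and IL-2 signals are known to lower the IL-7 receptor chain Il7r. Il2ra, also known as CD25, is a standard surface mark of T cell activation and of regulatory T cells.

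The members split into those that were high on ConA+PLL and those that were not. Il2ra, Il2rb and, on its brighter probe set, Cish were higher on ConA+PLL than on every other array of the same time point, at 3 h and at 24 h. The second Cish probe set did not follow this at 3 h. Il2ra reached 6.40-fold over naive cells at 24 h. Il7r was the lowest of its time point on ConA+PLL at both times, and its 24 h arrays all lay above its early arrays. Il4ra, Il6ra, Il21r and Socs1 also had all 24 h arrays apart from all early arrays. The share of all genes that separate in this way was not counted, so whether the members are unusual in this was not tested. Socs2 was flat on its brighter probe set. Over the 8 arrays 6 of the 9 members spanned at least 2-fold, against 19.4% of all genes tested, and the members' median range was 1.20 against 0.67 for all genes tested. The members were named with earlier results of these data known, so this describes them and is not a test.

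**Figure D1:**
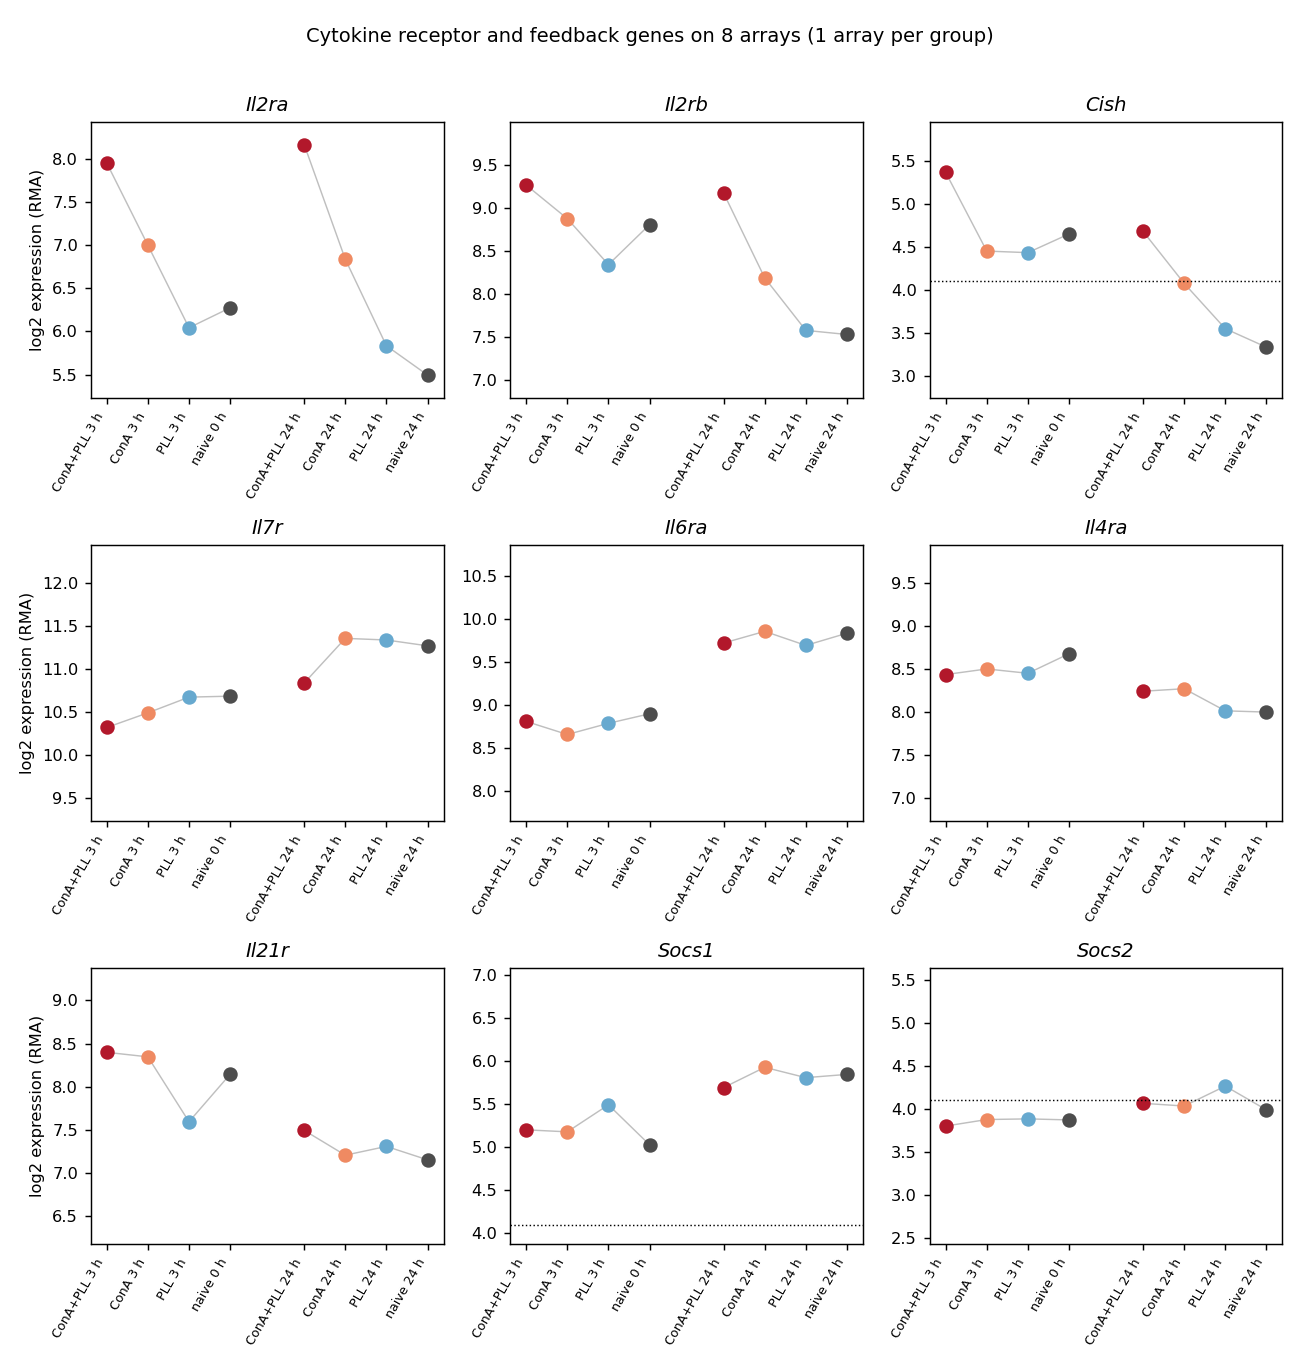
Log2 expression (RMA, vertical axes, all of the same span) of the 9 measured genes on 8 arrays, 1 point per array, with ConA+PLL in red, ConA in orange, PLL in blue and naive cells in grey; the left points of each panel are the 3 h arrays with naive cells at 0 h and the right points the 24 h arrays, and the dotted line marks 4.10. Il2ra, Il2rb and Cish (brighter probe set) sit highest on ConA+PLL at both times and Il7r lowest.

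Il2ra had the widest range of the members. At 3 h its level was 7.96 on ConA+PLL, 7.0 with ConA, 6.04 on PLL and 6.28 in naive cells at 0 h. At 24 h it was 8.17 on ConA+PLL, 6.84 with ConA, 5.83 on PLL and 5.49 in naive cells. Both ConA+PLL arrays lay above all others, both ConA arrays came next, and the PLL and naive arrays of each time lay lowest. The ConA+PLL to naive difference at 24 h was 2.68, place 2 of 13428 genes from the highest, and the ConA+PLL to PLL difference was 2.34, place 3. ConA without PLL differed from naive cells at 24 h by 1.35, also place 2, but from naive cells at 0 h by 0.56. PLL without ConA differed from naive cells by 0.34 at 24 h and by -0.23 at 3 h. Time-matched, ConA+PLL was 2.52-fold above ConA at 24 h and 1.94-fold above it at 3 h.

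Il2rb, the chain that binds IL-2 and IL-15 and recruits JAK1, followed the same order within each time point, at a narrower range. At 3 h its level was 9.26 on ConA+PLL, 8.87 with ConA, 8.34 on PLL and 8.80 in naive cells at 0 h. The 24 h levels were 9.17 on ConA+PLL, 8.19 with ConA, 7.58 on PLL and 7.53 in naive cells. ConA+PLL cells at 24 h therefore stood 3.12-fold above naive cells of the same time, but only 0.37 on the log2 scale above naive cells at 0 h. PLL and naive cells at 24 h lay below the 0 h array, by 1.23 and 1.28 in size. Against ConA at 24 h the ConA+PLL difference was 0.99, just under 2-fold, while Il21r at -0.99 in naive cells at 24 h against 0 h also fell just short of the threshold.

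Cish encodes an SH2-domain protein of the SOCS family that binds activated receptors and limits STAT5 signalling. Its promoter is shown because it was the only member window with more than 1 STAT5-type motif. The window holds 250 bases before and 50 bases after the RefSeq start (GRCm38.p6), read 5′ to 3′ on the gene's strand, with motif matches in capitals.
Cish promoter (chr9:107296409-107296708, plus strand): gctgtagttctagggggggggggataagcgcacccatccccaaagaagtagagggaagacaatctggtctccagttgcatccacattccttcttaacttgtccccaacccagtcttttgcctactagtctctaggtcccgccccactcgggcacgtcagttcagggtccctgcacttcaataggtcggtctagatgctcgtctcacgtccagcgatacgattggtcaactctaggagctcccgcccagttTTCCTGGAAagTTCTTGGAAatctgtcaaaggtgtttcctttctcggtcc
The motif searched was TTCNNNGAA on both strands, where N is any base. Cish held TTCCTGGAA at position 1 and TTCTTGGAA at position 12, counted from the start. One such match or more was found in 8.3% of 32851 mouse promoter windows, and 2 or more in 0.457%. A match describes letters and does not show binding.

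Cish was dim. At 3 h its brighter probe set read 5.36 on ConA+PLL, 4.45 with ConA, 4.43 on PLL and 4.65 in naive cells at 0 h. The 24 h arrays read 4.68 on ConA+PLL, 4.07 with ConA, 3.55 on PLL and 3.33 in naive cells. ConA+PLL was the highest array of each time point, and the ConA, PLL and naive arrays at 24 h lay under 4.10. The measured ConA+PLL to naive difference at 24 h was 1.35, but with values under 4.10 raised to that level ConA+PLL cells were at least 1.49-fold higher. At 3 h, where all arrays were above 4.10, ConA+PLL was 1.88-fold above ConA and 1.91-fold above PLL. Cish on ConA+PLL at 24 h was 0.03 above naive cells at 0 h.

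Cish and Socs2 each had a second, dimmer probe set, and in neither gene did it follow the first. For Cish the second read 4.36 on ConA+PLL, 4.40 with ConA, 4.15 on PLL and 3.96 in naive cells among the early arrays. Its 24 h values were 4.44 on ConA+PLL, 4.03 with ConA, 4.14 on PLL and 4.35 in naive cells. It thus put ConA+PLL only 0.09 above naive cells at 24 h, so the Cish differences rest on 1 probe set. In the naive cells at 24 h against 0 h the second probe set turned the direction, with 0.39 against -1.31 for the first.

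Socs2, a SOCS protein known to limit growth hormone and other STAT5-linked receptors, read 3.80 to 4.26 on its brighter probe set, a range of 0.46 over the 8 arrays. The dimmer probe set read 4.01 on ConA+PLL, 3.96 with ConA, 2.93 on PLL and 3.37 in naive cells among the early arrays. At 24 h it read 4.94 on ConA+PLL, 3.91 with ConA, 3.20 on PLL and 3.35 in naive cells. Only the ConA+PLL array at 24 h lay above 4.10, and with that level in place of the dim values it was at least 1.79-fold above ConA, PLL and naive cells at 24 h. Which probe set reads Socs2 better was not tested.

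**Figure D2:**
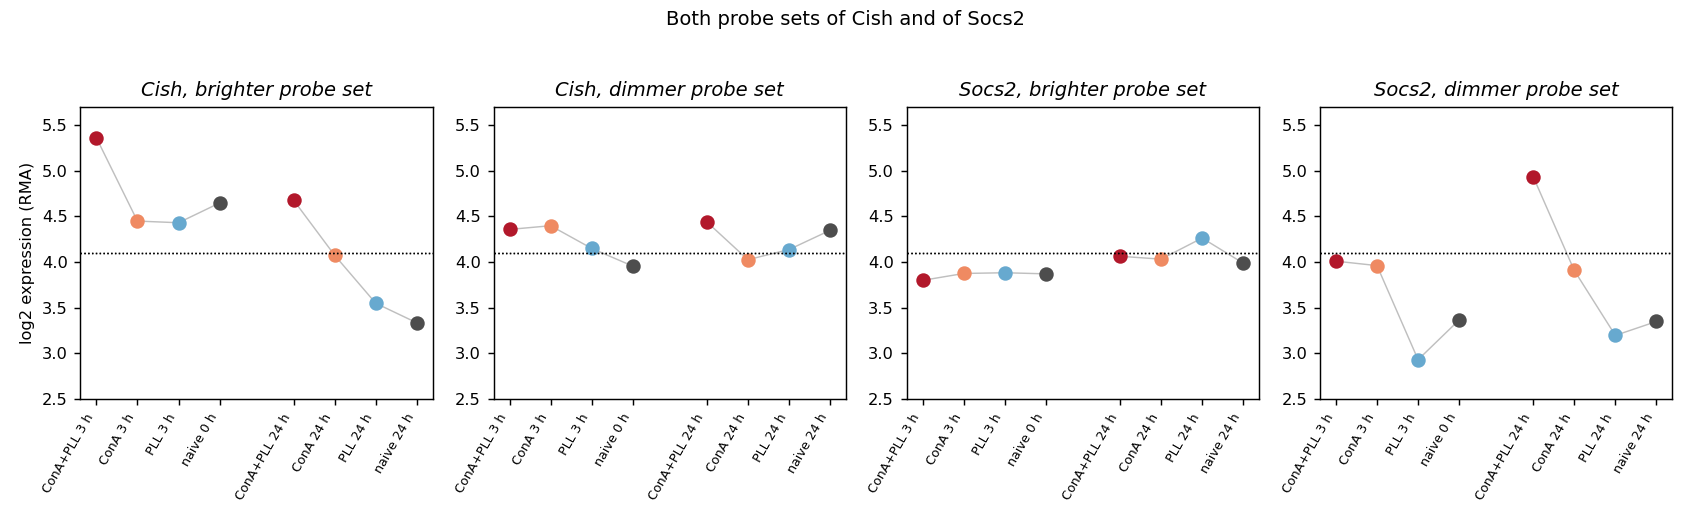
Log2 expression (RMA, vertical axis, the same in all panels) on 8 arrays for both probe sets of Cish (left pair) and of Socs2 (right pair), 1 point per array, with ConA+PLL in red, ConA in orange, PLL in blue and naive cells in grey and a dotted line at 4.10. The brighter Cish probe set peaks on ConA+PLL at 3 h (5.36) and the dimmer Socs2 probe set on ConA+PLL at 24 h (4.94). The dimmer Cish probe set spans 3.96 to 4.44 and the brighter Socs2 probe set 3.80 to 4.26.

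Il7r, the alpha chain that binds IL-7, ran opposite to Il2ra on ConA+PLL. Its promoter was the other member window with a STAT5-type motif, TTCAGGGAA at position -142, and is printed in the same way.
Il7r promoter (chr15:9529827-9530126, minus strand): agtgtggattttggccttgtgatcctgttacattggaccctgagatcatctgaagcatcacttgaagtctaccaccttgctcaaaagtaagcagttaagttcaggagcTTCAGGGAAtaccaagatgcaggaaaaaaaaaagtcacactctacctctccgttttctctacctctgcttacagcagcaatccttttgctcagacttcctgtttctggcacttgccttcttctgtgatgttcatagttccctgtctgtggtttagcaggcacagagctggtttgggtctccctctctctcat
At 3 h its level was 10.32 on ConA+PLL, 10.49 with ConA, 10.68 on PLL and 10.69 in naive cells at 0 h. At 24 h it was 10.84 on ConA+PLL, 11.36 with ConA, 11.34 on PLL and 11.27 in naive cells. The other 3 arrays at 24 h lay within 0.09 of each other, and ConA+PLL lay apart from them, at -0.52 from ConA, -0.50 from PLL and -0.43 from naive cells. None reached 2-fold; the difference from ConA was place 368 of 13428 from the lowest. Il7r on ConA+PLL at 24 h was 0.15 above naive cells at 0 h. Its changes over time were of similar or larger size, with 0.52 on ConA+PLL and 0.86 with ConA at 24 h against 3 h. All its 24 h arrays lay above all its early ones.

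The Il2ra window is printed beside these because the gene had the largest differences; it held no match to TTCNNNGAA.
Il2ra promoter (chr2:11642542-11642841, plus strand): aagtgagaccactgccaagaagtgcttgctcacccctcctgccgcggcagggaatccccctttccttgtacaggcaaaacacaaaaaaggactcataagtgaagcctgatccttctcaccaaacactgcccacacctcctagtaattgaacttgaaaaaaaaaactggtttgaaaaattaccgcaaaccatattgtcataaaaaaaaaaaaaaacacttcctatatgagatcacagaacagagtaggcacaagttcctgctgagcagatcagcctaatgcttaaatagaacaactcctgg
RefSeq windows were at hand for 8 of the 10 members (not Il2rb or Socs2). Beside Cish and Il7r, none of the other 6 held the STAT5-type motif. No member window held TTCNNNNGAA, the STAT6-type spacing found in 6.95% of all windows, or the AP-1 motif TGANTCA, found in 7.81%. These say only which letters stand in 300 bases; the known distal elements of Il2ra lie outside such a window.

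The remaining receptor chains, like Il7r, had all 24 h arrays apart from all early arrays. Only for Il6ra was every change over time larger than the differences within a time point. For Il21r the ConA+PLL to PLL difference at 3 h was 0.81, against -0.29 for PLL over time. For Il4ra ConA lay 0.27 above naive cells at 24 h, against -0.23 for ConA over time. The share of all genes with 24 h arrays apart from early arrays was not counted. The separation is thus given as a description of these chains, and whether it is unusual was not tested. Il6ra, which binds IL-6 and signals through its partner Il6st, had early levels of 8.81 on ConA+PLL, 8.66 with ConA, 8.79 on PLL and 8.90 in naive cells. The 24 h levels of Il6ra were 9.72 on ConA+PLL, 9.86 with ConA, 9.69 on PLL and 9.83 in naive cells. The 2 sets of arrays did not overlap, and within each set the arrays differed by less than 0.25. The difference of ConA at 24 h from ConA at 3 h was 1.20, and that of ConA+PLL at 24 h from 3 h was 0.91.

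Il21r, the receptor chain for IL-21, had early levels of 8.40 on ConA+PLL, 8.35 with ConA, 7.59 on PLL and 8.14 in naive cells. At 24 h its levels were 7.49 on ConA+PLL, 7.20 with ConA, 7.31 on PLL and 7.15 in naive cells. All 24 h arrays lay below all early arrays. At 3 h the PLL array was low, so that ConA+PLL stood 1.75-fold above PLL but 1.04-fold above ConA.

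Il4ra, the chain that binds IL-4, takes part in the IL-13 receptor and signals to STAT6, had early levels of 8.43 on ConA+PLL, 8.50 with ConA, 8.45 on PLL and 8.67 in naive cells. The 24 h levels of Il4ra were 8.24 on ConA+PLL, 8.27 with ConA, 8.01 on PLL and 8.0 in naive cells. Its whole range was 0.68, and at 24 h both arrays with ConA lay above both without. Its 24 h arrays all lay below its early ones.

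Socs1, which binds JAK kinases and blocks their activity, had early levels of 5.20 on ConA+PLL, 5.18 with ConA, 5.49 on PLL and 5.03 in naive cells. At 24 h it had 5.69 on ConA+PLL, 5.93 with ConA, 5.81 on PLL and 5.84 in naive cells. ConA+PLL was the lowest array at 24 h, by 0.23 from ConA, and all 24 h arrays lay above all early ones. Socs1 thus did not share the ConA+PLL pattern of Cish.

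Counted over the members, ConA+PLL against naive cells at 24 h had 3 members at least 2-fold higher (Il2ra, Il2rb and Cish), where 1.18% of all genes tested were, and 0 lower, where 0.387% were. Against PLL at 24 h the same 3 measured differences were at least 2-fold (1.13% of all genes) and 0 were lower (0.402%). In both counts the Cish difference is the measured one, against an array under 4.10, and with that level in its place Cish was at least 1.49-fold higher. Both are differences of its brighter probe set, and the second gave 0.09 against naive cells and 0.30 against PLL. Against ConA at 24 h 1 was, Il2ra (0.856% of all genes), with 0 lower (0.365%). ConA against naive cells at 24 h had 1 higher, Il2ra (0.119% of all genes), and 0 lower (0.141%); with naive cells at 0 h as the control Il2ra was no longer 2-fold apart. PLL against naive cells at 24 h had 0 members at least 2-fold higher or lower, where 0.0968% and 0.0596% of all genes were. The members' median difference for ConA+PLL against naive cells was 0.24 at 24 h, against 0.08 over all genes tested, and 0.10 with each array centred on its median.

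At 3 h ConA+PLL against naive cells at 0 h had 1 member at least 2-fold higher, Il2ra at 1.68 (1.03% of all genes), and 0 lower (0.648%). Against PLL at 3 h 1 was higher, again Il2ra at 1.91 (1.59% of all genes), and 0 lower (1.26%). Against ConA at 3 h the counts were 0 and 0 (0.573% and 0.626% of all genes), with Il2ra at 0.95. Cish was at 0.91 on its brighter probe set and at -0.04 on the second. ConA against naive cells at 0 h also had 0 and 0 (0.246% and 0.276% of all genes), as did PLL (0.357% and 0.276%). PLL at 3 h was below naive cells at 0 h for 7 of the 9 members, as were 49.9% of all genes, by up to 0.55 in size for Il21r.

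**Figure D3:**
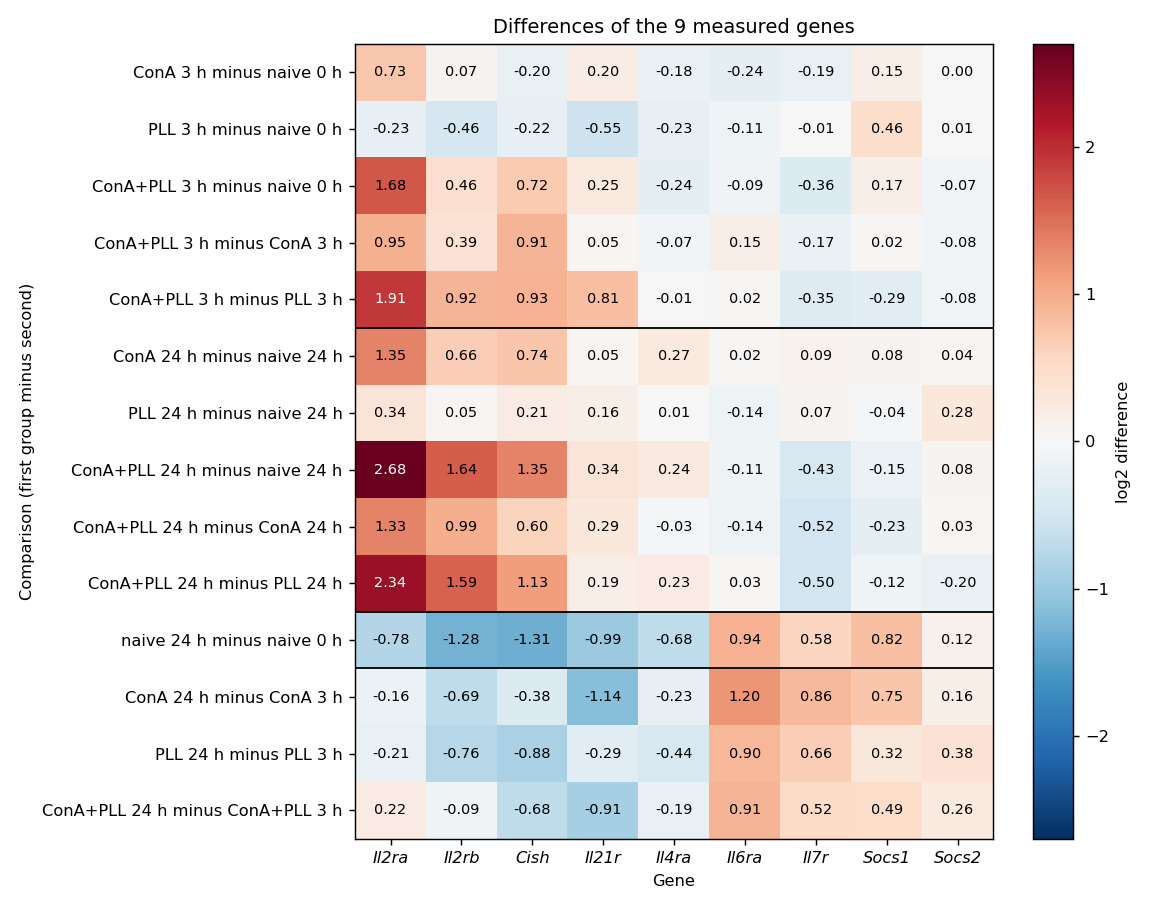
Log2 difference (first group minus second, colour scale and printed values) of the 9 measured genes (columns) in 14 comparisons (rows), with lines between the 3 h comparisons, the 24 h comparisons, naive cells over time and each treatment over time. Il2ra is positive in every comparison that sets an array with ConA against one without it, and reaches 2.68 for ConA+PLL against naive cells at 24 h.

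Culture without treatment moved the members in both directions. Naive cells at 24 h against 0 h had 2 members at least 2-fold lower, Cish at -1.31 and Il2rb at -1.28 (1.51% of all genes), and 0 higher (1.76%). Cish in naive cells at 24 h was under 4.10, and was at least 1.46-fold lower there with that level in its place. Il21r at -0.99, Il2ra at -0.78 and Il4ra at -0.68 were also lower at 24 h. Il6ra at 0.94, Socs1 at 0.82 and Il7r at 0.58 were higher. ConA at 24 h against ConA at 3 h had 1 higher, Il6ra (3.02% of all genes), and 1 lower, Il21r at -1.14 (1.53%). A 24 h difference from naive cells is thus set against a level below that of 0 h for Il2ra, Il2rb and Cish: against naive cells at 0 h, ConA+PLL at 24 h differed by 1.90 for Il2ra, 0.37 for Il2rb and 0.03 for Cish. ConA at 24 h differed from the 0 h array by 0.56 for Il2ra, -0.62 for Il2rb and -0.57 for Cish, so that the last 2 changed sign with the control array.

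The difference between ConA+PLL and PLL was then set beside that between ConA and naive cells. For Il2ra at 24 h the first was 2.34 and the second 1.35, a gap of 0.99. For Il2rb they were 1.59 and 0.66, a gap of 0.94. For Il7r they were -0.50 and 0.09, a gap of -0.59. For Cish, with the ConA, PLL and naive arrays all under 4.10, no gap is given at 24 h. All other members had gaps between -0.24 and 0.13 at 24 h. At 3 h the gap was 1.19 for Il2ra, 1.13 for Cish, 0.85 for Il2rb and 0.60 for Il21r, with 0.07 for Il2rb and -0.20 for Cish without PLL, against the 0 h array. On the second Cish probe set ConA+PLL differed from PLL by 0.21 and ConA from naive cells by 0.44. The Cish difference was thus not larger on PLL there. The median gap over all genes tested was 0.08 at 24 h and -0.02 at 3 h.

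**Figure D4:**
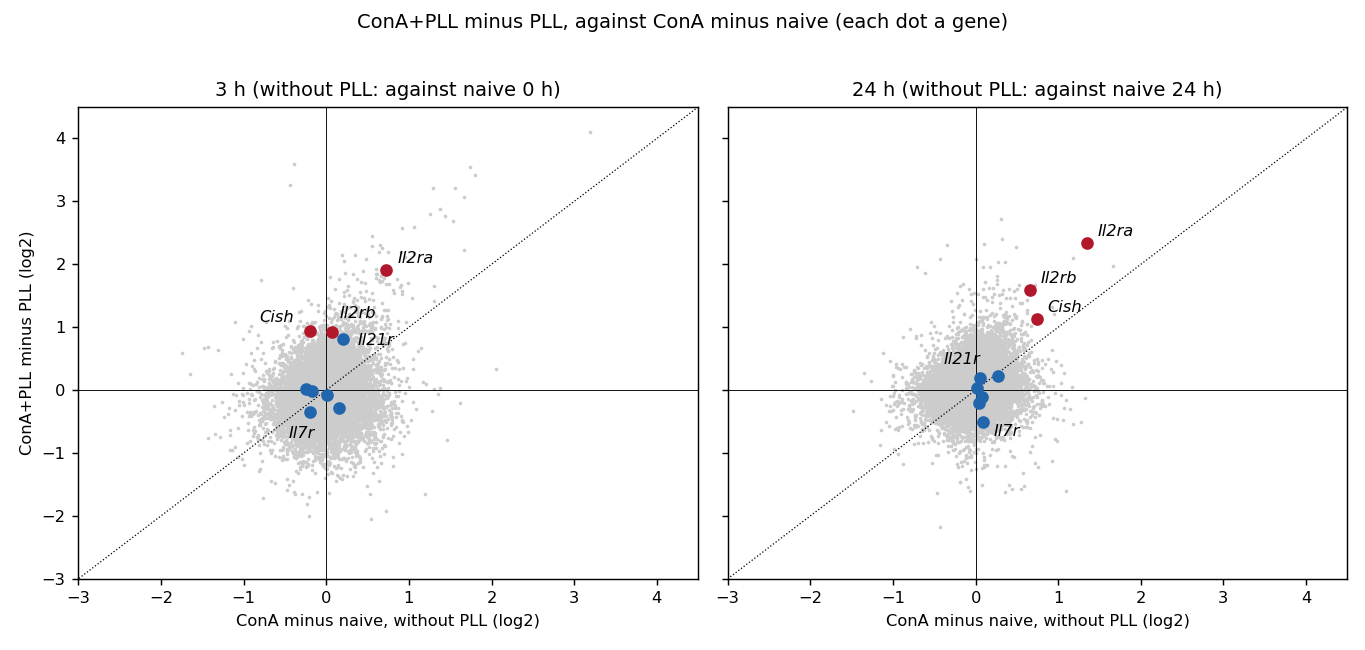
Log2 difference of ConA+PLL from PLL (vertical axis) against that of ConA from naive cells (horizontal axis) at 3 h (left, naive cells at 0 h) and 24 h (right, naive cells at 24 h), 1 dot per gene tested, with Il2ra, Il2rb and Cish in red, the other 6 measured members in blue and equality dotted. Il2ra lies at 2.34 and 1.35 at 24 h and at 1.91 and 0.73 at 3 h, above the dotted line both times.

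The other genes of the pathway were read from lists chosen with the members. Of 9 cytokines that these receptors bind, 2 passed the filter, Il2 and Il13, and both lay under 4.10 on all 8 arrays. Il2, the T cell growth factor itself, read 4.01 on ConA+PLL, 2.85 with ConA, 2.65 on PLL and 2.81 in naive cells among the early arrays, and 2.15 to 2.61 at 24 h. It passed the filter through the ConA+PLL array at 3 h alone, and no difference is read from values under 4.10. Il13 read 2.94 on ConA+PLL and 3.61 with ConA at 3 h, and 3.37 on ConA+PLL and 3.48 with ConA at 24 h.

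Of 20 other receptor chains 16 passed the filter, and 0 were at least 2-fold apart between ConA+PLL and ConA at either time, with a median difference of 0.09 at 24 h (-0.04 with each array centred) and -0.01 at 3 h. The largest at 24 h were Il12rb2 and Il12rb1, the chains of the IL-12 receptor. Il12rb1 was 4.82 on ConA+PLL and 4.32 with ConA. Il12rb2 was 4.69 on ConA+PLL and 4.04 with ConA at 24 h, with 3.97 in naive cells at 24 h and 7.14 in naive cells at 0 h, the widest range of that list at 3.29. The largest at 3 h were Csf2rb, under 4.10 on both arrays, and Il3ra, the IL-3 binding chain, at 4.95 on ConA+PLL and 4.54 with ConA.

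Of 11 JAK kinases and STAT factors listed, 9 were measured and 0 were 2-fold apart between ConA+PLL and ConA at either time; 8 of the 9 were above 0 at 24 h, as were 61.6% of all genes tested. Their median was 0.19 at 24 h against 0.08 over all genes tested, but 0.06 with each array centred on its median, and 0.12 at 3 h. Stat3, which IL-6 and IL-21 receptors use, was 8.93 on ConA+PLL and 8.42 with ConA at 24 h, and Tyk2 was 6.71 on ConA+PLL and 6.41 with ConA. At 3 h Stat6, the IL-4 receptor's factor, was 8.78 on ConA+PLL and 8.37 with ConA, and Jak2 was 9.25 on ConA+PLL and 8.92 with ConA. STAT5 is encoded by Stat5a and Stat5b. Stat5a was 6.21 on ConA+PLL, 6.12 with ConA, 6.05 on PLL and 5.68 in naive cells at 24 h. These all lay below the 7.38 of naive cells at 0 h. Stat5b was 8.79 on ConA+PLL, 8.78 with ConA, 8.58 on PLL and 8.69 in naive cells at 24 h. In naive cells at 0 h Stat5b was 9.65.

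Of 13 other inhibitors, all passed the filter and 0 were 2-fold apart between ConA+PLL and ConA, with medians of 0.06 at 24 h (-0.07 with each array centred) and 0.11 at 3 h. Ptpn6, the phosphatase SHP-1 that acts on JAK kinases and on receptor signals, was 8.61 on ConA+PLL and 7.79 with ConA at 24 h. At 3 h it was 9.18 on ConA+PLL, 8.39 with ConA, 6.96 on PLL and 6.72 in naive cells at 0 h, the arrays with ConA standing above those without. Socs3, the inhibitor of IL-6 receptor signals, was 6.30 on ConA+PLL and 5.69 with ConA at 24 h, but 4.21 on ConA+PLL and 5.10 with ConA at 3 h.

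Of 17 other known STAT5 targets, listed with earlier results of these data known, 16 passed the filter. Between ConA+PLL and ConA at 24 h 2 were at least 2-fold higher and 0 lower, beside the 0.856% and 0.365% of all genes given above. Of the 16, 13 were above 0 (61.6% of all genes). Their median was 0.45 against 0.08 over all genes tested, and 0.33 with each array centred on its median. Pim2, a survival kinase, was 8.31 on ConA+PLL and 7.09 with ConA, a 2.34-fold difference. Gzmb, the cytotoxic protease granzyme B, was 5.10 on ConA+PLL and 2.98 with ConA. With 4.10 in place of the dim value it was at least 1.997-fold higher, just under the threshold. Its place in the count rests on the measured difference. At 3 h, where 0.573% of all genes were at least 2-fold higher and 0.626% lower, 1 was higher, Myc, a growth regulator, with 9.66 on ConA+PLL and 8.40 with ConA. In the other direction 1 was at least 2-fold lower at 3 h, Gzmb, with 3.10 on ConA+PLL and 4.38 with ConA, at least 1.21-fold lower with 4.10 in place of the dim value. Many of these genes have other regulators, and the list's values do not show STAT5 activity, which was not measured.

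**Figure D5:**
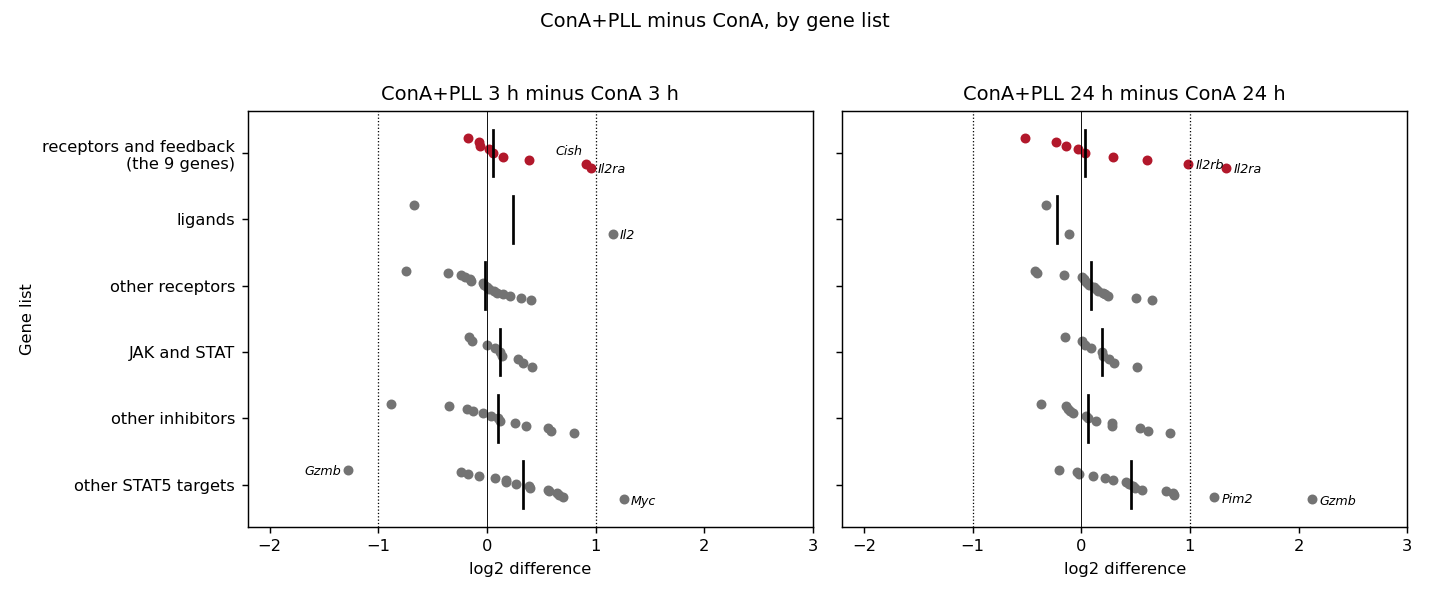
Log2 difference of ConA+PLL from ConA (horizontal axes) at 3 h (left) and 24 h (right) for the 9 measured members (red) and the filtered genes of 5 pathway lists (grey), 1 point per gene, with the list's median as a black bar and dotted lines at 2-fold. Il2ra stands at 0.95 and 1.33, and the other STAT5 targets have the highest list medians, 0.33 at 3 h and 0.45 at 24 h.

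Il2ra also marks regulatory T cells, so their markers are given beside it. The 8 measured regulatory T cell markers averaged 6.68 on ConA+PLL, 6.06 with ConA, 5.77 on PLL and 5.75 in naive cells at 24 h. Of the 8, 7 were above ConA on ConA+PLL, as were 61.6% of all genes tested. Foxp3, the lineage factor, which also stands in the list of STAT5 targets, was 8.35 on ConA+PLL, 7.50 with ConA, 7.09 on PLL and 6.89 in naive cells at 24 h. At 3 h the markers averaged 6.09 on ConA+PLL, 6.16 with ConA, 5.90 on PLL and 6.02 in naive cells at 0 h. Of the 8, 2 were above ConA on ConA+PLL (47.1% of all genes), whereas Il2ra was 0.95 above. The share of these cells in the Il2ra values was not tested. Among the monocyte, macrophage and dendritic markers 5 of 9 lay under 4.10 on all arrays, and H2-Ab1 was the widest apart. At 24 h it was 5.81 on ConA+PLL, 5.29 with ConA, 5.69 on PLL and 4.26 in naive cells.

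Genes whose levels ran most like those of Il2ra, Il7r and Cish were listed by Pearson's r over the 8 arrays, among 2375 filtered genes with at least a 2-fold range. The arrays share their time points and controls, and r is given as a description. Directions that a listed gene shares with its member follow from how it was picked. For Il2ra they were Ncapg2 (0.953), a condensin subunit, Foxp3 (0.945), Nup205 (0.943), a nuclear pore protein, Nme1 (0.937), a nucleoside diphosphate kinase, and Tacc2 (0.927). For Cish they were Usp14 (0.978), Cks2 (0.973), a cell cycle kinase subunit, Pogk (0.968), Smc2 (0.968), another condensin subunit, and Cycs (0.963), cytochrome c. For Il7r they were Rnf32 (0.991), Kcna2 (0.987), Fgd3 (0.982), Tent5a (0.982) and Tnrc6a (0.980). Some listed genes were dim. Ncapg2 lay under 4.10 on every array except ConA+PLL at 24 h (4.29), and passed the filter through the ConA+PLL arrays alone. Pogk lay under 4.10 on all 8 arrays, and passed through ConA+PLL at 3 h (4.02) alone. Rnf32 lay under 4.10 on all early arrays. Cish itself was under 4.10 on 3 arrays, and its r values are those of its brighter probe set. Among the members, Il2rb and Cish ran most alike of the 3 that were high on ConA+PLL, with r of 0.947, against 0.861 for Il2ra and Il2rb and 0.782 for Il2ra and Cish.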

How the data were processed

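RNA of 8 groups of mouse T cells was hybridised to 8 Affymetrix Mouse Gene 2.0 ST arrays, 1 per group. Per the study's methods the authors scanned the arrays and normalized them by robust multi-array average (RMA); the deposited values were read as log2 levels, one per probe set, a base the table does not state. The set of arrays normalized together, the software version and the genome build: not given in the sources used here. Groups and times came from the labels. The platform annotation named the probe sets, and members and lists were chosen with earlier results of these data known. All members are named, with 2 genes per pathway list and time by the size of the ConA+PLL minus ConA difference and the 5 genes most alike to 3 members. Genes without a probe set of their own (Il2rg among them) were not analysed here, nor were protein sequences. Promoters are from RefSeq. Python 3.11.15, pandas 2.3.3 and numpy 2.4.6 were used; counting was tested on simulated data. Alternatives were quantile normalization, centring, other probe set rules, a 1.5-fold threshold, a raised floor and other control arrays. The number of arrays limits the precision.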

Additional observations from a re-analysis of the deposited data

Results flagged for a closer look

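The second probe set of Socs2, which the gene-level values do not use, read 4.94 on ConA+PLL at 24 h, against 3.91 with ConA, 3.20 on PLL and 3.35 in naive cells of the same time. It is listed because the signal stands in data outside the values of the main comparisons and above the control array. The brighter probe set of the gene read 4.06 on ConA+PLL and 3.99 in naive cells. With 1 array per group this was not tested.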

How the results depend on the processing

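Across the settings tried, Il2ra at 24 h kept its direction and its side of 2-fold in ConA+PLL against ConA, PLL and naive cells wherever these arrays were compared; the exceptions below concern other genes, the 3 h arrays and the control array. With quantile normalization 124 of 126 member differences stayed on the same side of 2-fold, with each array centred on its median 120, with the mean of a gene's probe sets 123 and with levels raised to 4.10 again 123. With naive cells at 0 h as the control at 24 h 22 of 27 did, and with PLL as the control at 3 h 18 of 18. No difference past 2-fold changed sign in any of these, whereas smaller ones did: 16 of 27 with the 0 h array as control, 6 of 18 with PLL as control, 8 of 126 each with quantile normalization and centring and 5 of 126 with the mean of probe sets.

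A threshold of 1.5-fold raised counts of higher members to 1 for ConA against naive at 3 h, 2 for ConA+PLL against naive, 2 against ConA and 4 against PLL at 3 h, 3 for ConA against naive and 3 for ConA+PLL against ConA at 24 h, and over time to 2 in naive cells, 3 with ConA, 2 on PLL and 1 on ConA+PLL. Counts of lower members over time rose to 5 in naive cells and 2 each with ConA, on PLL and on ConA+PLL. ConA+PLL against ConA at 3 h had 1 higher with quantile normalization or centring, and against PLL 2 and 3. Centring gave 1 lower for ConA+PLL at 24 h against 3 h. Averaging probe sets left 1 lower in naive cells over time. The other probe sets of Cish and Socs2, chosen after seeing the data, gave 2 higher for ConA+PLL against PLL at 3 h and against ConA at 24 h, and 1 lower in naive cells over time.

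Cish depended on its probe set: the mean of both gave 0.72 for ConA+PLL against naive cells at 24 h, 0.72 against PLL and -0.46 in naive cells over time, and the second probe set reversed the last to 0.39. Medians over lists changed sign where they were small: for the members with ConA at 24 h against 3 h the mean was 0.0412; centring gave -0.0854 for the members, -0.16 for the other STAT5 targets and -0.0629 for the other receptors on ConA+PLL at 24 h against 3 h, where the median of all genes was 0.15 before centring, and 0.00315 for the other receptors on ConA+PLL against PLL at 3 h. For ConA+PLL against ConA at 24 h centring gave -0.10 for the members, -0.07 for the other inhibitors and -0.04 for the other receptors. It gave 0.06 for the JAK and STAT genes and 0.33 for the other STAT5 targets there. Over time centring gave -0.10 with ConA and -0.21 on ConA+PLL for the JAK and STAT genes. For the other inhibitors it gave -0.22 on ConA+PLL over time. The cause was not tested. No paired analysis was possible because each group is 1 array. Differences of genes near 4.10, Cish, Socs2, Il2 and Gzmb among them, are limited by the arrays' background, and no setting replaces the missing replicates.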
